A study of Homo sapiens with 6 samples.

Results

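The insulin-like growth factor (IGF) binding protein genes IGFBP2 to IGFBP7 were followed in A375 cells, an established human melanoma line, after 72 h with vehicle or with either of a pair of inhibitors. The NCBI Gene IDs of the deposited tables were mapped to symbols, and these 6 genes were taken from the 28395 gene IDs listed. All 6 passed the filter on low counts, among 16381 genes that did. The 3 groups hold 2 libraries each: A375 in 0.01% DMSO, A375 in 1 µM palbociclib (PD991 in the titles), which blocks the kinases CDK4 and CDK6, and A375 in 500 nM GSK3326595 (CTX in the titles), which blocks the arginine methyltransferase PRMT5. All groups share the cell line, RPMI medium and RNA preparation by ribosomal RNA depletion, so the findings concern 1 melanoma line at 1 dose and 1 time for each compound.

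IGF binding proteins are secreted proteins that bind IGF1 and IGF2 with high affinity, keep them from their receptor, and carry them in blood and tissue. Proteases that cleave the binding proteins free the ligands, which then act through the receptor kinase encoded by IGF1R. Several members also act without IGF ligands, at the cell surface or inside the cell, and many are released by cells that have stopped dividing. IGFBP7 is an outlying member with low affinity for IGFs and has been studied in melanoma as a secreted growth inhibitor.

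The members changed in different combinations with each inhibitor. IGFBP2, IGFBP3 and IGFBP6 rose with palbociclib, and with GSK3326595 IGFBP7 and IGFBP4 rose and IGFBP3 fell. Start-site sequence from RefSeq (GRCh38.p14) was matched for 5 of the 6 members, all but IGFBP7, each window reaching from 250 bases before to 50 bases after the annotated start. The windows of IGFBP2, IGFBP3, IGFBP6 and IGFBP4, the matched members called in a comparison with DMSO, are shown, 5′ to 3′ along the gene's own strand, so that the bases around the start can be set beside the levels. Capitals mark matches, on either strand, to the GC box GGGCGG and to the TATA box letters TATAAA and TATATA. IGFBP2 is chr2:216633170-216633469 (plus strand, the one of its 3 windows whose start lies nearest that of its full-length GENCODE v29 transcript), IGFBP3 is chr7:45921223-45921522 (minus strand), IGFBP6 is chr12:53097417-53097716 (plus strand) and IGFBP4 is chr17:40443200-40443499 (plus strand).
IGFBP2: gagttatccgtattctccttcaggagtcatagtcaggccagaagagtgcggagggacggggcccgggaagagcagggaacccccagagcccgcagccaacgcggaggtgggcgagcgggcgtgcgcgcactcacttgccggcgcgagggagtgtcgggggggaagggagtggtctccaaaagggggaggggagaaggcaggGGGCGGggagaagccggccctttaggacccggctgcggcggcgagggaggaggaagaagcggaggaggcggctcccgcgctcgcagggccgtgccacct
IGFBP3: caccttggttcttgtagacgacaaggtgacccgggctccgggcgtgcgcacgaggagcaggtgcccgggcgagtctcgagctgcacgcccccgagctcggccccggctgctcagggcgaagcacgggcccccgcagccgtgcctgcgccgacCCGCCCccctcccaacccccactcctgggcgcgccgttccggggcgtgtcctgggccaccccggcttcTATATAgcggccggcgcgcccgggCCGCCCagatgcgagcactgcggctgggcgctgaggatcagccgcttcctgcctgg
IGFBP6: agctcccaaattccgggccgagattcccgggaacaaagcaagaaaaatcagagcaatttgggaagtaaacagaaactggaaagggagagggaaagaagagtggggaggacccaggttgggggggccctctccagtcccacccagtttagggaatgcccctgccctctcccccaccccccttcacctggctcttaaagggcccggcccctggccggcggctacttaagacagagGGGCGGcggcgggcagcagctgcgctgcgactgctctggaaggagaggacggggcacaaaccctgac
IGFBP4: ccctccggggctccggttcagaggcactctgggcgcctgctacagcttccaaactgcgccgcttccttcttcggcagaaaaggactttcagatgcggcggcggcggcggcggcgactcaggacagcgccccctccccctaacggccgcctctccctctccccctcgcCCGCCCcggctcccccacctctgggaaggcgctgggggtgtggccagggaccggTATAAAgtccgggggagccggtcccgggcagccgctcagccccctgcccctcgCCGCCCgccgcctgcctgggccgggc

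The IGFBP3 and IGFBP4 windows each hold a TATA box match, at 30 and 29 bases before the start, and 2 GC box matches. The IGFBP2 and IGFBP6 windows hold 1 GC box match each and no TATA box match, and the IGFBP5 window holds neither. Of the 35116 windows of this length in the table, 45% hold a GC box match and 13.7% a TATA box match. GC content was 70% for IGFBP2, 74.7% for IGFBP3, 74% for IGFBP4, 59% for IGFBP5 and 61.7% for IGFBP6, against a median of 58.7% over all windows. The 3 members that rose with palbociclib therefore do not share a TATA box match in these windows, while each holds the GC box letters that 45% of all windows hold. No match in any of the 5 windows was found, on either strand, for the E-box CACGTG, the AP-1 letters TGANTCA, the CHR letters TTTGAA, the E2F letters TTTGGCGC and TTTCCCGC, or the p53 half-site. Over all windows, the E-box letters were found in 7.26%, the AP-1 letters in 7.71% and the CHR letters in 15.2%. The E2F letters were in 2.27% and the p53 half-site in 6.63%, so most windows lack each of them. Matches are a description of the letters and not of binding.

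Levels are CPM, the raw count for every 1000000 counts of the library, whose size was adjusted by the trimmed mean of M values (TMM). Library totals ran from 16589153 to 20842099 counts. Member counts ran from 387 to 7898, for which counting error alone is 5.08% and 1.13% of the value. No label says that replicates came from separate cultures. The p-values therefore reflect the spread among these 6 libraries, and that spread may be technical. Of the melanocyte lineage markers, SOX10 was at 122 to 237 CPM and MITF at 57.3 to 87.3 CPM in the 6 libraries, whereas PMEL and MLANA were at most at 2.45 CPM and TYR had a count in 1 library only. The blood, endothelial and epithelial markers PTPRC, CD3E, HBB, CDH5, EPCAM and CDH1 were at or below 0.711 CPM in every library. Other listed markers were higher. The keratin genes KRT18 and KRT8 were at 465 to 598 CPM and 124 to 179.8 CPM, and KRT14 was at 1.98 to 8.35 CPM. The endothelial receptor gene TIE1 was at 11.3 to 26.04 CPM, PECAM1 at 1.34 to 4.01 CPM and KDR at 0.156 to 3.50 CPM. Of the blood markers, CSF1R was at 2.79 to 3.96 CPM. CD14, VWF, TEK and KRT5 also exceeded 0.711 CPM in a library or more.

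Set against exon length, IGFBP4 was the most abundant member in each library and IGFBP6 came next. On the scale of CPM per kb of exon (GENCODE v29), the level of IGFBP4 in DMSO was 104 and 135, that of IGFBP6 was 88.8 and 96.5, that of IGFBP5 was 29.4 and 26.9, that of IGFBP2 was 24.6 and 29.5, that of IGFBP3 was 12.9 and 15.6, and that of IGFBP7 was 11.9 and 13.9. IGFBP5 and IGFBP2 changed order between the DMSO libraries, so this pair cannot be ordered at baseline. The ranges of IGFBP3 and IGFBP7 overlap, though IGFBP3 was the higher within each DMSO library. Neither order was tested. With palbociclib the length-scaled level of IGFBP3 was 27.97 and 29.95 and stood above that of IGFBP5, at 26.5 and 21.6. With GSK3326595 the length-scaled level of IGFBP3 was 10.02 and 11.5, below the other 5 members in both libraries, and that of IGFBP7 was 21.98 and 23.3. In this condition IGFBP7 overlapped with IGFBP5, at 27.1 and 21.4. IGFBP3 therefore stood above IGFBP5 and IGFBP7 with palbociclib and below all other members with GSK3326595, while IGFBP4 and IGFBP6 kept the top places.

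**Figure D1:**
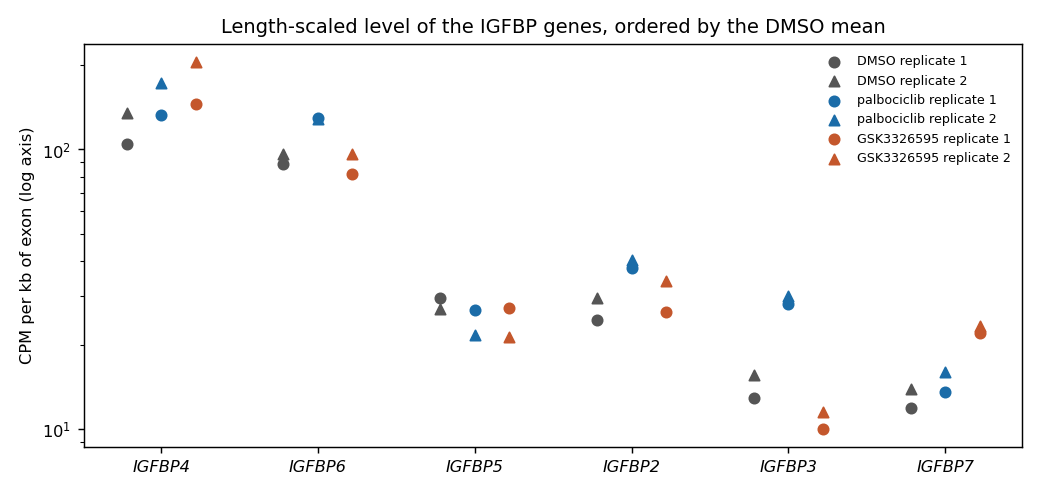
Length-scaled level (CPM per kb of exon, log axis) of each IGFBP gene, with 1 symbol per library, circles for replicate 1 and triangles for replicate 2. IGFBP4 and IGFBP6 lie above the other 4 genes in all 6 libraries, and the IGFBP3 points are higher with palbociclib than in DMSO and lower with GSK3326595.

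The first question is which members differ when CDK4 and CDK6 are inhibited, from palbociclib against DMSO. IGFBP3, the main carrier of IGFs in blood, was at 33.9 and 41.2 CPM in the DMSO libraries and at 73.6 and 78.9 CPM with palbociclib. Both treated libraries were far above both controls, and the fold change was 2.03 (log2 fold change 1.02 ± 0.114 SE, edgeR adjusted p = 2.77e-05). IGFBP6, which prefers IGF2 over IGF1, was at 119 and 129.6 CPM in DMSO and at 174 and 173 CPM with palbociclib. The palbociclib libraries lay close together and above the controls, with a fold change of 1.39 (log2 0.48 ± 0.0942 SE, edgeR adjusted p = 0.00179). IGFBP2, which carries an integrin-binding motif and is abundant in many tumours, was at 38.6 and 46.2 CPM in DMSO and at 59.0 and 63.0 CPM with palbociclib. Again the groups did not overlap, with a fold change of 1.44 (log2 0.52 ± 0.128 SE, edgeR adjusted p = 0.00646). IGFBP2 no longer passed in edgeR when DMSO replicate 1 was left out (log2 fold change 0.40, adjusted p = 0.064) or without palbociclib replicate 2 (log2 0.48, adjusted p = 0.0502).

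The other 3 members were not called. IGFBP4, which is cleaved by the protease PAPPA, was at 229.7 and 298 CPM in DMSO and at 293 and 379 CPM with palbociclib, and the groups overlapped (log2 fold change 0.35 ± 0.169 SE, edgeR adjusted p = 0.12). IGFBP5, which binds extracellular matrix, was at 183 and 167 CPM in DMSO and at 165 and 135 CPM with palbociclib (log2 -0.22 ± 0.123 SE, edgeR adjusted p = 0.168). IGFBP7 was at 21.6 and 25.2 CPM in DMSO and at 24.7 and 28.9 CPM with palbociclib, and the groups overlapped (log2 0.19 ± 0.12 SE, edgeR adjusted p = 0.217). In all, edgeR called 3 of 6 members higher and 0 lower, with 0 lower also at an unadjusted edgeR p under 0.05 and in DESeq2 and limma-voom. Of all genes tested 39.5% were called, 19.3% higher and 20.2% lower. The median log2 fold change was 0.41 over the members and -0.02 over all genes tested. Both palbociclib libraries lay above both DMSO libraries for 3 members and below them for 1, IGFBP5, against 35.1% and 37.4% of all genes, or 72.5% without overlap in either direction.

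The libraries numbered 2 differed from those numbered 1 in the same direction for some members. IGFBP4 was higher in replicate 2 than in replicate 1 by a log2 of 0.37 in DMSO, 0.37 with palbociclib and 0.49 with GSK3326595, and IGFBP5 was lower by -0.13, -0.29 and -0.35. When the replicate number was a block in the fit, edgeR called 5 members with palbociclib instead of 3: IGFBP4 became higher (log2 0.35, adjusted p = 2.37e-05) and IGFBP5 lower (log2 -0.23, adjusted p = 0.00353) in the blocked edgeR fit. The blocked fit called 53.2% of all genes, against 39.5% without the block. IGFBP4 was also called higher in edgeR when only the groups compared were fitted (adjusted p = 0.0325), and without DMSO replicate 2 (log2 0.57, adjusted p = 0.0411), GSK3326595 replicate 1 (adjusted p = 0.0256) or GSK3326595 replicate 2 (adjusted p = 0.0247).

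**Figure D2:**
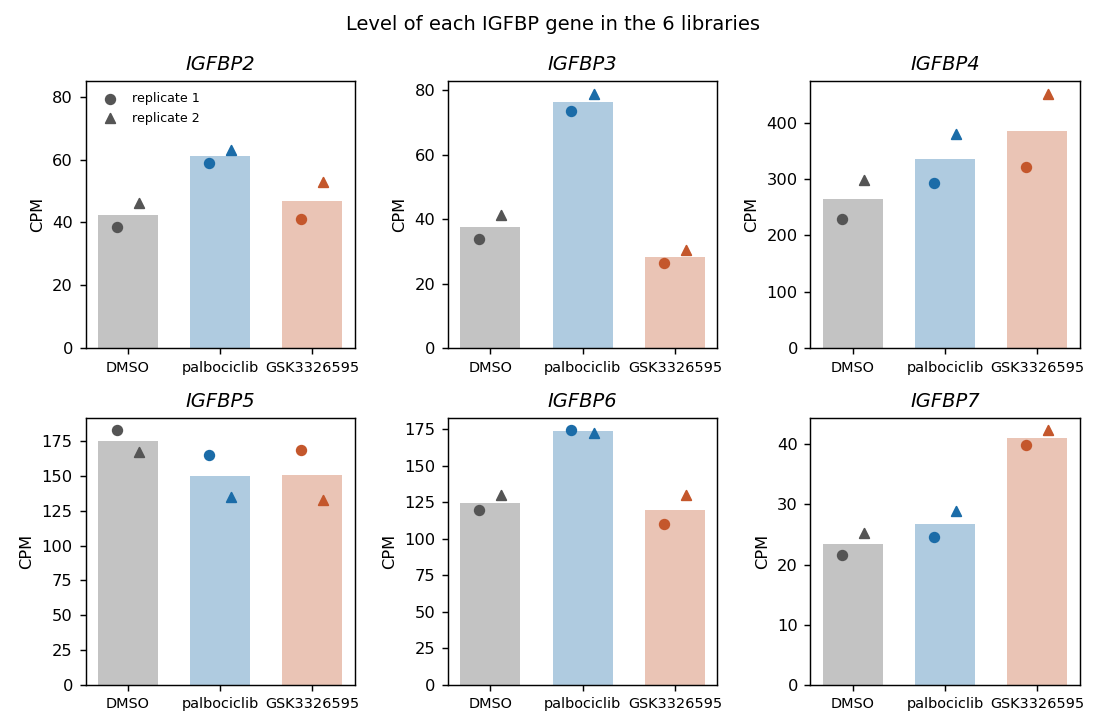
CPM of each IGFBP gene by group, with bars at the mean of 2 libraries, circles for replicate 1 and triangles for replicate 2. IGFBP3, IGFBP6 and IGFBP2 are highest with palbociclib and IGFBP7 with GSK3326595, and in IGFBP4 the triangle stands above the circle in all 3 groups.

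GSK3326595 against DMSO asked the same of PRMT5 inhibition. IGFBP7 was at 39.9 and 42.3 CPM with GSK3326595, against 21.6 and 25.2 CPM in DMSO, with no overlap. Its fold change was 1.76 (log2 0.81 ± 0.119 SE, edgeR adjusted p = 0.000732). IGFBP4 was at 321 and 451 CPM with GSK3326595, above 229.7 and 298 CPM in DMSO, a fold change of 1.46 (log2 0.55 ± 0.169 SE, edgeR adjusted p = 0.0414). The GSK3326595 libraries were themselves further apart than the lower of them was from DMSO replicate 2. DESeq2 did not call IGFBP4 (adjusted p = 0.21), and nor did edgeR when DMSO replicate 1 was left out (log2 0.35, adjusted p = 0.273) or GSK3326595 replicate 2 (log2 0.28, adjusted p = 0.235).

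IGFBP3 was lower with GSK3326595, at 26.4 and 30.3 CPM against 33.9 and 41.2 CPM in DMSO. The groups did not overlap, and the fold change was 0.753 (log2 -0.41 ± 0.118 SE, edgeR adjusted p = 0.0319). It no longer passed in edgeR when the fit left out DMSO replicate 2 (log2 -0.26, adjusted p = 0.244), palbociclib replicate 1 (adjusted p = 0.0508), palbociclib replicate 2 (adjusted p = 0.0515) or GSK3326595 replicate 1 (log2 -0.31, adjusted p = 0.12). IGFBP2 was at 41.0 and 52.9 CPM (log2 0.15 ± 0.129 SE, edgeR adjusted p = 0.469) and IGFBP6 at 109.7 and 129.6 CPM (log2 -0.06 ± 0.0949 SE, edgeR adjusted p = 0.722), both overlapping with DMSO. IGFBP5 was at 169 and 133 CPM, with overlap (log2 -0.21 ± 0.123 SE, edgeR adjusted p = 0.252). IGFBP5 was called lower in edgeR with the replicate block, where 35.2% of all genes were called (log2 -0.22, adjusted p = 0.00817), and without GSK3326595 replicate 1 (log2 -0.40, adjusted p = 0.0303). Thus 2 of 6 members were called higher and 1 lower, where 18.8% of all genes were called, 8.58% higher and 10.2% lower. The median log2 fold change was 0.04 over the members and 0.00 over all genes tested. Both GSK3326595 libraries lay above both DMSO libraries for 2 members and below them for 1, against 27.6% and 29.7% of all genes, or 57.3% without overlap in either direction.

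**Figure D3:**
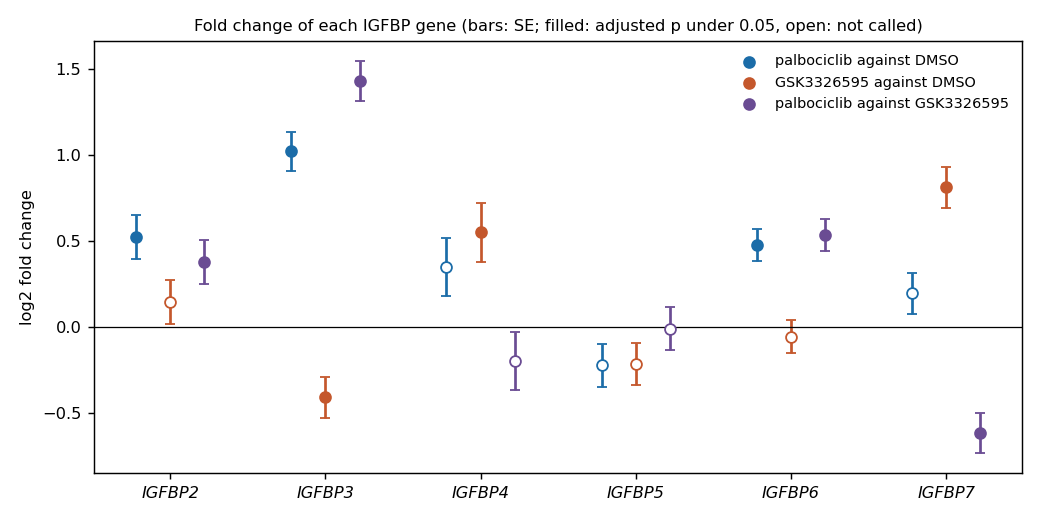
log2 fold change of each IGFBP gene in the 3 contrasts, with bars of 1 approximate SE, filled points for an edgeR adjusted p under 0.05 and open points for genes not called. IGFBP3 lies at 1.02 with palbociclib and -0.41 with GSK3326595, and IGFBP7 lies at 0.19 and 0.81.

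Both comparisons use the same DMSO libraries, so the inhibitors were also compared with each other. IGFBP3 was 2.69 times as high with palbociclib as with GSK3326595 (log2 1.43 ± 0.116 SE, edgeR adjusted p = 8.92e-06). IGFBP6 was 1.45 times as high (log2 0.53 ± 0.0945 SE, edgeR adjusted p = 0.00114). IGFBP7 was lower with palbociclib than with GSK3326595 (log2 -0.62 ± 0.117 SE, edgeR adjusted p = 0.00178). In all 3 genes the libraries of the inhibitors did not overlap, and none of these calls was lost under any alternative run. IGFBP2 was 1.30 times as high with palbociclib (log2 0.38 ± 0.127 SE, edgeR adjusted p = 0.0373), but did not pass in edgeR without palbociclib replicate 1 (log2 0.43, adjusted p = 0.0836), palbociclib replicate 2 (log2 0.33, adjusted p = 0.179) or GSK3326595 replicate 1 (log2 0.22, adjusted p = 0.223).

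IGFBP4 was not called between the inhibitors (log2 -0.20 ± 0.168 SE, edgeR adjusted p = 0.392). In the blocked edgeR fit, which called 48.3% of all genes, it was called lower with palbociclib (log2 -0.19, adjusted p = 0.0168), as it was without GSK3326595 replicate 1 (log2 -0.41, adjusted p = 0.0432), while without GSK3326595 replicate 2 the sign turned (log2 0.07, edgeR adjusted p = 0.76). IGFBP5 was at log2 -0.01 ± 0.123 SE (edgeR adjusted p = 0.961), with a sign that changed among the alternatives. Of the 6 members 3 were called higher and 1 lower with palbociclib, where 34.8% of all genes were called, 16.6% higher and 18.2% lower. The median log2 difference was 0.18 over the members and -0.03 over all genes tested. The palbociclib libraries lay above those of GSK3326595 for 3 members and below them for 1, against 31.8% and 35.7% of all genes, or 67.4% without overlap in either direction.

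A ratio of counts within a library does not depend on the scaling. The IGFBP3 count divided by the IGFBP7 count was 1.57 and 1.63 in DMSO, 2.99 and 2.73 with palbociclib, and 0.661 and 0.715 with GSK3326595. This pair was chosen after the values were seen and carries no test. IGFBP3 thus had more reads than IGFBP7 in the DMSO and palbociclib libraries and fewer in those of GSK3326595. The IGFBP4 count divided by the IGFBP5 count was 1.26 and 1.78 in DMSO, 1.78 and 2.82 with palbociclib, and 1.90 and 3.40 with GSK3326595, higher in the library numbered 2 each time. The summed level of the 6 members was 626 and 707 CPM in DMSO, 789 and 857 CPM with palbociclib, and 706 and 839 CPM with GSK3326595. IGFBP4 supplied between 36.7% and 53.8% of that sum and IGFBP3 between 3.61% and 9.33%.

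Across the 6 libraries, IGFBP2, IGFBP3 and IGFBP6 had similar profiles. The Pearson correlation of log2 CPM was 0.967 for IGFBP3 with IGFBP6, 0.915 for IGFBP2 with IGFBP6 and 0.809 for IGFBP2 with IGFBP3. IGFBP4 and IGFBP5 ran opposite, at -0.936, and IGFBP3 and IGFBP7 were at -0.475. These values rest on 6 libraries that share their group and replicate structure, and are given as a description. Among 12240 other genes with at least 2 CPM on average, the profiles most like that of IGFBP3 were those of ROBO4 (r = 0.997), CEP170B (0.996) and S100A3 (0.996). Those most like IGFBP6 were RAET1E (0.998), HADHA (0.997) and CMTM8 (0.997), and those most like IGFBP2 were ACAT1 (0.998), GPS1 (0.997) and KYNU (0.997). For IGFBP4 they were RPS27A, a ribosomal protein gene (0.997), DANCR (0.996) and SBDS, a ribosome maturation factor gene (0.992). For IGFBP7 they were ARID3A (0.996), UMPS (0.994) and POLR1C (0.993). With 6 points such values are common: between 85 genes, for IGFBP4, and 365 genes, for IGFBP6, exceeded 0.95.

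The ligands that the binding proteins carry were nearly absent from the counts. IGF1 had 0.557 CPM in DMSO replicate 1 and at most 0.0582 CPM in the other 5 libraries. IGF2 and INS had 0 counts in all 6 libraries, which allows levels up to between 0.144 and 0.175 CPM per library (3 counts), for counting error only. IGF2 overlaps INS-IGF2 on chromosome 11, which also had 0 counts, and how reads in overlapping genes were counted is not given in the sources used here, so the IGF2 zeros are not read as absence. IGFBP1, the remaining classical binding protein gene, had at most 3 counts in any library and was not tested.

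Of the listed receptor genes, IGF1R and IGF2R were well expressed, and INSR and INSRR were lower. IGF1R, the signalling receptor, was at 220 and 212 CPM in DMSO, 202 and 190.1 CPM with palbociclib, and 219 and 200.3 CPM with GSK3326595, and edgeR called it in neither comparison with DMSO (adjusted p = 0.208 and 0.765). IGF2R, which clears IGF2 and sorts lysosomal enzymes, was at 267 and 247 CPM in DMSO and at 398 and 397 CPM with palbociclib, a fold change of 1.55 (log2 0.63 ± 0.0869 SE, edgeR adjusted p = 0.000146). With GSK3326595 it was at 259 and 271 CPM (edgeR adjusted p = 0.774). INSR, the insulin receptor gene, was at 26.1 and 19.7 CPM in DMSO and was not called by edgeR with palbociclib (adjusted p = 0.62) or GSK3326595 (adjusted p = 0.228), though with the replicate block it was called lower with GSK3326595 (log2 -0.27, edgeR adjusted p = 0.0404). Between the inhibitors INSR was not called (log2 0.37 ± 0.147 SE, edgeR adjusted p = 0.07). It was called higher with palbociclib in the blocked edgeR fit (log2 0.37, adjusted p = 0.00231), where 48.3% of all genes were called. The same call was made with only the compared groups (edgeR adjusted p = 0.0301). INSRR had at most 0.288 CPM and was not tested.

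The shares to set beside the gene groups that follow are 39.5% of all genes called with palbociclib (19.3% higher, 20.2% lower, median log2 fold change -0.02) and 18.8% with GSK3326595 (8.58% higher, 10.2% lower, median 0.00). A group of genes that cleave the binding proteins or restrain that cleavage also holds IGFALS, which encodes the third subunit of the complex that IGFs form in blood. Of its 8 tested genes, 6 rose with palbociclib and 1 fell, with a median log2 fold change of 1.00, and IGFALS was not called (log2 -0.43 ± 0.336 SE, edgeR adjusted p = 0.334). STC1 and STC2, which encode inhibitors of PAPPA, both rose. The STC1 level was 39.6 ± 8.61 CPM in DMSO against 109.7 ± 14.7 CPM with palbociclib, and STC2 at 23.1 ± 2.56 and 49.8 ± 9.41 CPM (SD, n = 2; edgeR adjusted p = 3.87e-05 and 6.12e-05). ADAM12, a protease of IGFBP3 and IGFBP5, rose by a log2 of 1.38 ± 0.155 (SE, edgeR adjusted p = 3.06e-05). With GSK3326595, 2 of 8 rose and 0 fell, with a median log2 fold change of 0.31. At an unadjusted edgeR p under 0.05 there were still 0 lower, but ADAM12 and STC2 were higher too. The PAPPA level was 13.7 and 14.4 CPM in the DMSO libraries, 20.05 and 20.8 CPM with palbociclib, and 23.4 and 31.0 CPM with GSK3326595, so both inhibitors were above DMSO in every library. It rose by a log2 of 0.95 ± 0.139 with GSK3326595 (SE, edgeR adjusted p = 0.000757) and 0.54 ± 0.14 with palbociclib (SE, edgeR adjusted p = 0.00943), the last not past the threshold without palbociclib replicate 2 (adjusted p = 0.0557). HTRA1, a secreted serine protease gene, rose with both, by 0.88 ± 0.143 with palbociclib and 0.70 ± 0.145 with GSK3326595 (SE, edgeR adjusted p = 0.000458 and 0.00631). When DMSO replicate 1 was left out, edgeR did not call HTRA1 with GSK3326595 (adjusted p = 0.0567). With the replicate block, edgeR also called STC1 (log2 0.26, adjusted p = 0.0101), STC2 (0.37, 0.00196) and ADAM12 (0.49, 0.00602) higher with GSK3326595.

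Of 19 tested adaptors and signalling genes below IGF1R, 10 rose, 2 fell and 7 were not called with palbociclib, with a median log2 fold change of 0.40. PIK3R3, a regulatory subunit of phosphoinositide 3-kinase, was at 16.5 ± 0.186 CPM in DMSO and rose to 42.5 ± 1.12 CPM (SD, n = 2; log2 1.37 ± 0.123 SE, edgeR adjusted p = 5.48e-06), and PIK3R2, another such subunit, rose by a log2 of 0.65. SH2B1 was also called higher with palbociclib (log2 0.24 ± 0.0858 SE, edgeR adjusted p = 0.0399), but not by DESeq2 (adjusted p = 0.053). Leaving out each library in turn gave it log2 fold changes of 0.21 to 0.30 with palbociclib. With GSK3326595 1 of the 19, the adaptor gene SH2B1, rose (log2 0.38 ± 0.086 SE, edgeR adjusted p = 0.0108), but did not pass when DMSO replicate 2 was left out (adjusted p = 0.0959), and the median was 0.07. Of the IGF2 mRNA-binding protein genes, IGF2BP3 rose (log2 0.44 ± 0.0848 SE) and IGF2BP1 fell (log2 -0.34 ± 0.0846 SE) with palbociclib (edgeR adjusted p = 0.00147 and 0.00746), and 0 of 3 was called with GSK3326595, also at an unadjusted edgeR p under 0.05. IGF2BP1 did not pass in edgeR when DMSO replicate 2 was left out (adjusted p = 0.0924) or without palbociclib replicate 1 (adjusted p = 0.107).

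IGFBP-related genes, whose products share the amino-terminal IGFBP-type domain, split in direction with palbociclib: 2 of 7 tested rose and 3 fell. CCN3, a matricellular protein gene, was at 43.8 ± 4.11 CPM in DMSO and rose to 182.9 ± 6.92 CPM (SD, n = 2; log2 2.06 ± 0.152 SE, edgeR adjusted p = 1.09e-06). ESM1 fell by 0.80 and CRIM1 by 0.50 on the log2 scale (edgeR adjusted p = 0.000513 and 0.0025), CRIM1 no longer passing without palbociclib replicate 1 (adjusted p = 0.0543). With GSK3326595 only CCN2 of these 7 was called by edgeR, higher by a log2 of 0.64 ± 0.132 (SE, adjusted p = 0.00635). CCN1 was at a log2 of 0.54 ± 0.181 (SE, edgeR adjusted p = 0.059) and was called higher in 7 edgeR alternatives: without the filter (adjusted p = 0.0367), with only the compared groups (0.0348), with the block (1.61e-08), and without DMSO replicate 1 (0.0409), palbociclib replicate 1 (0.0298), palbociclib replicate 2 (0.0308) or GSK3326595 replicate 2 (0.00263). In the blocked fit CCN3 was also called higher with GSK3326595 (log2 0.25, edgeR adjusted p = 0.0199). Of 9 genes for reported cell-surface partners, 3 rose with palbociclib: LRP1 (log2 0.85 ± 0.153 SE), TMEM219, which encodes a receptor of IGFBP3 (0.43 ± 0.0999), and PTPRZ1 (1.27 ± 0.313), at edgeR adjusted p = 0.00099, 0.00489 and 0.00689. The TMEM219 level was 28.5 and 30.1 CPM in DMSO against 41.2 and 37.9 CPM with palbociclib, and it did not pass in edgeR when palbociclib replicate 1 was left out (adjusted p = 0.0545). PTPRZ1 did not pass without DMSO replicate 2 (edgeR adjusted p = 0.0519) or palbociclib replicate 2 (adjusted p = 0.0916). With GSK3326595 the integrin gene ITGB3 fell by 0.48 on the log2 scale (edgeR adjusted p = 0.00274) and the other 8 were not called. With the replicate block ITGB3 was called higher with palbociclib (log2 0.15, edgeR adjusted p = 0.0418).

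Other genes of these small counts were named after their values were seen. With palbociclib, edgeR called the protease gene ADAM9 lower (log2 -0.32, adjusted p = 0.0145), the lipid kinase subunit gene PIK3CB lower (log2 -0.36, adjusted p = 0.00381), the matricellular gene CCN1 lower (log2 -0.71, adjusted p = 0.00937) and CCN6 higher (log2 0.93, adjusted p = 0.024). None of these 4 calls held throughout. DESeq2 did not call CCN1 (adjusted p = 0.0862) or CCN6 (adjusted p = 0.0828). Leaving out 1 library gave highest edgeR adjusted p-values for ADAM9, PIK3CB, CCN1 and CCN6 of 0.17, 0.0549, 0.0974 and 0.188. These were reached for ADAM9 and PIK3CB without DMSO replicate 2, for CCN1 without palbociclib replicate 2 and for CCN6 without palbociclib replicate 1. With GSK3326595 the blocked edgeR fit called ADAM9 and PIK3CB lower (log2 -0.19 and -0.20, adjusted p = 0.0243 and 0.0239).

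In total, 30 of 49 tested IGF axis genes other than the members were called with palbociclib, 23 higher and 7 lower, where 39.5% of all genes were called. The replicate block gave 34 with palbociclib, 25 higher and 9 lower, where 53.2% of all genes were called. With GSK3326595 5 were called, 4 higher and 1 lower, or 10.2% of the 49 against 18.8% of all genes. With the replicate block 20 were called, 12 higher and 8 lower, where 35.2% of all genes were called. Between the inhibitors 32 were called, where 34.8% of all genes were called. The axis counts of each comparison moved when a library was left out, as did the counts over all genes.

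**Figure D4:**
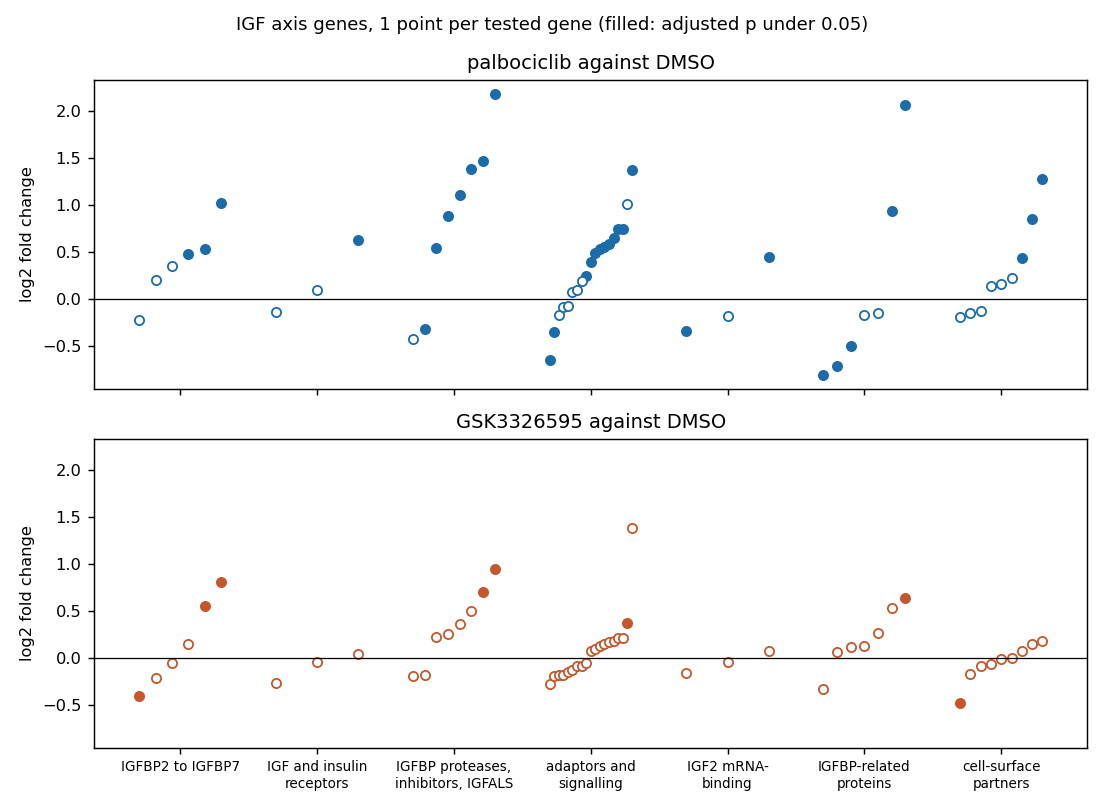
log2 fold change against DMSO of each tested IGF axis gene by group of genes, with 1 point per gene, filled for an edgeR adjusted p under 0.05 and open for genes not called. With palbociclib 6 of 8 genes of the group of proteases, their inhibitors and IGFALS lie above 0 as filled points, and with GSK3326595 2 do.

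Markers of other cell types were examined beside these results, as the summed CPM of 6 genes a list. Fibroblast markers summed to 36.6 and 46.0 CPM in DMSO, 29.4 and 36.4 CPM with palbociclib, and 53.3 and 59.1 CPM with GSK3326595. COL1A1 made up much of the last, at 28.4 and 26.2 CPM with GSK3326595 against 13.9 and 12.5 CPM in DMSO. PDGFRB was at 26.1 and 21.7 CPM with GSK3326595 and at 28.3 and 20.8 CPM in DMSO, while DCN and COL3A1 were at most at 0.466 CPM. Of 4 tested fibroblast markers, 1 rose (LUM) and 2 fell (PDGFRB and COL1A1) with palbociclib and 1 rose (COL1A1) with GSK3326595. Endothelial markers summed to 20.7 to 22.3 CPM in DMSO, 23.8 to 33.8 CPM with palbociclib and 16.4 to 22.8 CPM with GSK3326595. Of 5 tested endothelial markers, 1 rose and 1 fell with palbociclib and 1 rose with GSK3326595. The one that rose was KDR, at 0.334 and 0.156 CPM in DMSO, 2.84 and 3.50 CPM with palbociclib and 1.16 and 1.63 CPM with GSK3326595 (edgeR adjusted p = 4.15e-05 and 0.00451). Blood markers summed to at most 5.07 CPM, and the 1 tested was called in neither comparison. Epithelial markers, at 617 to 782 CPM over the 6 libraries, had 1 of 4 higher (KRT14) and 1 lower (KRT8) with palbociclib, and edgeR called 0 with GSK3326595, also at an unadjusted p under 0.05. Melanocyte markers summed to 228 and 257 CPM in DMSO, 284 and 311 CPM with palbociclib, and 208 and 261 CPM with GSK3326595. Of 5 tested, 1 rose with each inhibitor. Their part in the IGFBP results was not tested.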

How the data were processed

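For each of 6 libraries the authors deposited a table of raw counts, 1 per NCBI Gene ID, without normalization. Per the submitters' processing notes, the tools were CASAVA 1.8.2, cutadapt 1.7, HISAT2, featureCounts 1.6.2 and limma, with build hg38. Annotation, strand setting and treatment of shared reads: not given in the sources used here. RefSeq's GRCh38.p14 gene table gave symbols for 27745 of 28395 IDs; the other 650 stayed in the totals and tests and held 0.233% to 0.508% of counts.

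Genes were kept by filterByExpr (minimum count 10), scaled by TMM and tested by edgeR 4.0.16 (R 4.3.3) with a two-sided quasi-likelihood test on all 6 libraries, 1 coefficient per group. Calls are at a Benjamini-Hochberg (BH) adjusted p under 0.05 over 16381 genes. Each SE is approximate, the size of the log2 fold change over the root of the test's F. The procedure was tested on simulated data. Alternatives were DESeq2 1.42.0, limma-voom (limma 3.58.1), other scalings and filters, the compared groups alone, the replicate block, and leaving out each library.

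The labels name no shared batch, but deviations of same-numbered libraries from their group means correlated across genes (0.179 for DMSO and palbociclib, 0.341 for DMSO and GSK3326595, 0.14 for palbociclib and GSK3326595), so blocked values are printed where they change a call. Named genes are all 6 members, IGFBP1, every listed ligand and receptor and, in each other list, up to 3 called genes with the smallest p per inhibitor; 4 more belong to small counts. Results for 2 listed genes are not reported here. For likeness, the 3 highest Pearson correlations were taken. Members and lists were chosen with earlier results of these data known.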

Additional observations from a re-analysis of the deposited data

How the results depend on the processing

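The rises of IGFBP3 and IGFBP6 with palbociclib and of IGFBP7 with GSK3326595 kept their direction and their call under all 14 alternatives, as did the differences of these 3 genes between the inhibitors. Leaving out each library in turn gave log2 fold changes of 0.88 to 1.19 for IGFBP3 and 0.42 to 0.56 for IGFBP6 with palbociclib, and 0.68 to 0.93 for IGFBP7 with GSK3326595. The number of members called moved when 1 library was left out, as did the number of all genes called, so it describes the fit and not the members alone. With the replicate block the number of members called was 5 with palbociclib (IGFBP4 and IGFBP5 added), where 53.2% of all genes were called. The block added IGFBP5 with GSK3326595, where 35.2% of all genes were called, and IGFBP4 between the inhibitors, where 48.3% were called. No other member's call changed. The block gave 20 IGF axis genes called with GSK3326595, where 35.2% of all genes were called. Axis counts moved in all comparisons, palbociclib against DMSO included, when 1 library was left out. The number of all genes called moved as well, so these counts describe the fit and not the axis genes alone. Without 1 library, the axis count was 4 to 9 with GSK3326595 and 21 to 32 between the inhibitors.

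Signs turned only for values that were not called in the main fit. Of these, IGFBP4 between the inhibitors and STC1 and CCN3 with GSK3326595 were called in the blocked edgeR fit. With GSK3326595 and 1 library left out, log2 ranges were -0.0515 to 0.317 for IGFBP2, -0.184 to 0.0580 for IGFBP6, -0.111 to 0.0181 for IGF1R, -0.0124 to 0.0754 for IGF2R, -0.0267 to 0.50 for STC1, -0.0155 to 0.34 for PIK3R3, -0.0741 to 0.53 for CCN3, -0.00981 to 0.22 for CRIM1, -0.16 to 0.32 for LRP1, -0.0762 to 0.0296 for TMEM219, -0.00183 to 0.27 for PTPRZ1 and -0.0207 to 0.118 for CCN6. With palbociclib INSR ran from -0.0734 to 0.313. Between the inhibitors IGFBP4 ran from -0.41 to 0.0711 and IGFBP5 from -0.17 to 0.184, and IGFBP5 was also at 0.00652 with DESeq2 size factors in edgeR, 0.00659 with DESeq2 and 0.0143 with only the compared groups. The cause of these turns was not tested beyond the library left out. With 2 libraries a group, a lone remaining library is assumed to vary like the others.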

Other observations

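For the chromosomal neighbours of the members, raw counts are given. They are not scaled to the library totals, which ran from 16589153 to 20842099, so they do not compare levels between groups. IGFBP2 and IGFBP5 lie 7668 bases apart on chromosome 2, facing each other's 3′ ends. IGFBP2 counts were 692 and 889 in DMSO and 1162 and 1313 with palbociclib, whereas IGFBP5 counts were 3278 and 3210 and then 3249 and 2803. Once scaled, IGFBP5 was at 183 and 167 CPM in DMSO and at 165 and 135 CPM with palbociclib. IGFBP1 and IGFBP3 lie 18584 bases apart on chromosome 7, and IGFBP1 had at most 3 counts while IGFBP3 had 453 to 1643. On chromosome 17 the nearest protein-coding genes on either side of IGFBP4 are TNS4, 18108 bases away, and TOP2A, 25553 bases away. TOP2A encodes the topoisomerase of dividing cells. TOP2A counts were 10108 and 11884 in DMSO, 3495 and 4139 with palbociclib and 5459 and 5283 with GSK3326595. In the same order, TNS4 counts were 44 and 48, 24 and 37, and 50 and 52. IGFBP4 counts were 4121 and 5724, 5777 and 7898, and 5504 and 7754.

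IGFBP7 shares 386 bases at its 3′ end with POLR2B, a subunit gene of RNA polymerase II, on the opposite strand. POLR2B had 4304 and 5277 raw counts in DMSO and 4363 and 4916 with GSK3326595, and IGFBP7 had 387 and 485 and then 685 and 727. These counts too are not scaled to the library totals. IGFBP7-AS1, which overlaps the start of IGFBP7 by 624 bases, had at most 3 counts. Whether shared reads were split or dropped is not given in the sources used here.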
